A study of Mus musculus with 4 samples.

Results

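The Ms4a genes Ms4a1, Ms4a4a, Ms4a4b, Ms4a4c, Ms4a6b, Ms4a6c, Ms4a6d and Ms4a7 were followed across the CD45+ leukocytes of EO771 mammary tumors. These 8 genes are 8 of the 19 genes whose symbol starts with Ms4a and of the 32285 genes counted. They were taken by name, with earlier results of these data known, over 28429 cells that the authors kept. Each had 837 or more counts in these cells, and every other Ms4a gene had 629 or fewer. The cells were sorted into 15 cell types by lineage markers that include no Ms4a gene. A level is the number of unique molecular identifiers (UMIs, each 1 captured transcript) of the gene per 10000 UMIs of that cell type in 1 tumor, given as the mean ± SD over tumors.

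MS4A proteins are small membrane-spanning proteins, and their genes lie side by side in a cluster. Ms4a1 encodes CD20, the antibody target of B cells, and Ms4a2 encodes the beta chain of the high-affinity IgE receptor of mast cells and basophils. Ms4a7 and Ms4a4a are known from macrophages, and Ms4a4b is known from T cells, where it associates with GITR, the product of Tnfrsf18.

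EO771 is a mouse mammary tumor line, and it was implanted into the mammary fat pad of 2 Csf1r fl/fl and 2 Lyve1Cre Csf1r fl/fl female mice. Both genotypes carry floxed alleles of Csf1r, the receptor through which macrophages receive survival signals, and the second also carries a Cre driven by Lyve1, a hyaluronan receptor of macrophage subsets and lymphatic endothelium. CD45+ cells were sorted, and a Chromium run took 1 tumor per genotype, with hashtag antibodies as the label, in 2 runs. Replicates are tumors, 2 per genotype, and cells from the same tumor do not count as replicates. The Csf1r fl/fl tumors are called control tumors below, and tumors of either genotype carry the number of their run. Values for the 4 tumors are given in the order control tumor 1, control tumor 2, Lyve1Cre Csf1r fl/fl tumor 1, Lyve1Cre Csf1r fl/fl tumor 2.

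The 4 tumors held 4771 to 8699 kept cells and 27686362 to 56715743 UMIs, and the median UMIs per cell lay between 3721 and 4657. Scrublet called 12.5 to 16.2% of the cells doublets in 3 tumors and 25.5% in control tumor 1. In the kept cells of both runs, 60 barcode sequences were shared. Csf1r, itself a gate marker, stood at 2.34 and 2.50 UMIs per 10000 in the mononuclear phagocytes of the control tumors and at 1.58 and 1.59 in those of the Lyve1Cre Csf1r fl/fl tumors. In C1q macrophages alone it was 1.74 and 2.46 against 1.29 and 1.85, with overlap. A 3′ tag need not lie in the floxed part, so these values do not check the deletion.

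The gates gave 6302 neutrophils, 3862 Ly6c2 monocytes, 3256 CD8 T cells, 1550 regulatory T cells, 1487 mature dendritic cells (DCs) and 1176 NK cells. The smaller types were 833 Cd209a DCs, 691 conventional CD4 T cells, 460 C1q macrophages, 228 gamma delta T cells, 201 plasmacytoid DCs, 187 conventional type 1 DCs and 110 Arg1 macrophages, the last with 10 or more cells in 3 tumors only. The B cell gate held 63 cells, of which 11, 2, 4 and 46 came from the 4 tumors, and its label went against the data. Its own marker list gave 15.7 and 20.2 UMIs per 10000 in the tumors with enough cells, against 48.8 and 62.4 for the list of mononuclear phagocytes, and it is called the B cell gate below rather than a cell type. The list of Ly6c2 monocytes (Ly6c2, Ccr2, Plac8, Chil3 and Vcan) also stood above the own list of 3 DC gates. It gave 34.4 to 45.7 UMIs per 10000 in Cd209a DCs against 9.42 to 13.5 for their own list, 10.3 to 23.3 against 7.53 to 9.88 in conventional type 1 DCs, and 80.7 to 94.9 against 63.2 to 84.5 in plasmacytoid DCs, so that these names stand for the gates. The list of mononuclear phagocytes was at 7.96 to 9.93, 1.40 to 8.60 and 6.52 to 20.4 in these gates in the same order. In Ly6c2 monocytes it was at 73.9 to 90.1.

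The 8 gene models lay between positions 11249675 and 11604849 of chromosome 19 of mm10 (GENCODE vM21), a span of 355.2 kb. Ms4a1, Ms4a7 and Ms4a6d are on the minus strand and the other 5 on the plus strand. Ms4a4a, Ms4a4c, Ms4a4b, Ms4a6c and Ms4a6b followed each other from 11375523 to 11531256 with no other gene of the family among them. This block held the gene with the highest level in NK cells, Ms4a4b, between neighbors whose levels were highest in Ly6c2 monocytes.

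**Figure D1:**
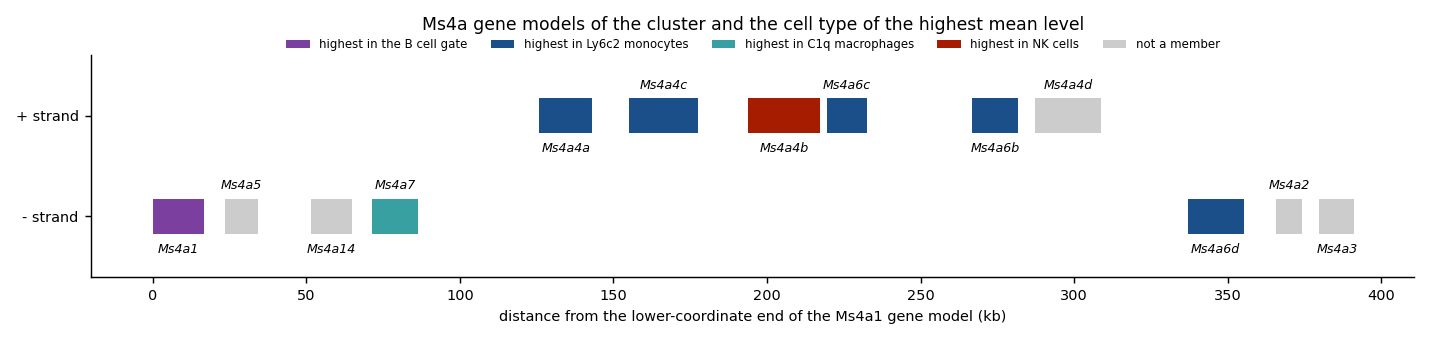
Position of the Ms4a gene models from Ms4a1 to Ms4a3, as distance in kb from the lower-coordinate end of the Ms4a1 gene model, with the strand on the vertical axis. The color gives the cell type with the highest mean level of each of the 8 genes, and 5 of them (Ms4a4a, Ms4a4c, Ms4a6b, Ms4a6c and Ms4a6d) were highest in Ly6c2 monocytes while Ms4a4b, within the block, was highest in NK cells.

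Some of the members resemble each other in promoter sequence. Promoter entries of RefSeq (GRCm38.p6, 250 bases before to 50 after the annotated start) were found for 6 of the 8 genes. In global pairwise alignments, the promoters of Ms4a4c and Ms4a4b had 225 identical bases, 75.0% of the window, which was the highest identity among the members. The pair is shown because the type with the highest level differed: Ly6c2 monocytes for Ms4a4c and NK cells for Ms4a4b. Neither gene was confined to these cells. Ms4a4c was at 2.69 UMIs per 10000 in CD8 T cells and Ms4a4b at 1.01 in monocytes. Capitals mark the longest runs of identical bases, 2 in each promoter, of 20 bases each.
Ms4a4c (chr19:11407411-11407710, + strand): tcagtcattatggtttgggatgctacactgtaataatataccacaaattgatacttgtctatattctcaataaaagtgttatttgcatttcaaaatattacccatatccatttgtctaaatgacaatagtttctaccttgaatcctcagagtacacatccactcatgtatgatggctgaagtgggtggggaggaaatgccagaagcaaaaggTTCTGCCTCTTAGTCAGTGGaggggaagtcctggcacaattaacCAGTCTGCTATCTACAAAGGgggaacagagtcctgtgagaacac
Ms4a4b (chr19:11443308-11443607, + strand): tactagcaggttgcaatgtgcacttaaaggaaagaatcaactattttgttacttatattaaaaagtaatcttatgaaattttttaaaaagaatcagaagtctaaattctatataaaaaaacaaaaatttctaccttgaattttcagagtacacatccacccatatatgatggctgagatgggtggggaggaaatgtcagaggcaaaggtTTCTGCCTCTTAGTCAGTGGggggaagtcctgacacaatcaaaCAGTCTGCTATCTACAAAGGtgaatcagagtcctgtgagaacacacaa

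The promoters of Ms4a6c and Ms4a6b shared 192 bases or 64.0%, and the next pair, Ms4a4a and Ms4a4c, shared 52.3%. This second pair is shown because both genes were high in monocytes while only Ms4a6b kept a level in T cells close to that of macrophages. Capitals mark the longest identical run, of 48 bases, which covers positions -49 to -2 from the annotated start in Ms4a6c and -118 to -71 in Ms4a6b.
Ms4a6c (chr19:11469118-11469417, + strand): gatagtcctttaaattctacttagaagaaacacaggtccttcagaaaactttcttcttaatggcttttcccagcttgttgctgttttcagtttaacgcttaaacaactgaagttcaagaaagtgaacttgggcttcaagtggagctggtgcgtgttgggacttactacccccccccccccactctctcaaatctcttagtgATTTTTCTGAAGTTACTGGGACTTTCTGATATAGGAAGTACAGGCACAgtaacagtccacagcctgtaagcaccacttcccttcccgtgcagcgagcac
Ms4a6b (chr19:11518309-11518608, + strand): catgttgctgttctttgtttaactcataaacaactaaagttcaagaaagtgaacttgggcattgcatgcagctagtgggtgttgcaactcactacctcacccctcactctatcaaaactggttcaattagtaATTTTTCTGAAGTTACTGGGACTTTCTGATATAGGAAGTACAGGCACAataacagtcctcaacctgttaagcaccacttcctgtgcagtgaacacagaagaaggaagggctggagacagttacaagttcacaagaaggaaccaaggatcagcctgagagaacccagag

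Both Ms4a6 promoters held the letters GAAANNGAA, the spacing found in interferon-stimulated response elements, at positions -133 to -125 from the start of Ms4a6c and -206 to -198 from that of Ms4a6b. The motif was searched on both strands and was found in 8.56% of the 32851 RefSeq promoters. It was also found at positions -71 to -63 from the first start of Ms4a7, on the opposite strand, where capitals mark it in the sequence below, and in the promoter of the second start. That promoter is shown because Ms4a7 was the only one of the 8 genes with its highest level in macrophages.
Ms4a7 (chr19:11336097-11336396, - strand): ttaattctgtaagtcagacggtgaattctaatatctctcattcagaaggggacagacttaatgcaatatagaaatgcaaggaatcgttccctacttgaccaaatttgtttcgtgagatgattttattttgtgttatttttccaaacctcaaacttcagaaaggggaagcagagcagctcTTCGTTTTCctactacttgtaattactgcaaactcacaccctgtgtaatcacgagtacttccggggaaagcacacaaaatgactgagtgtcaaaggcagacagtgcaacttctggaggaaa

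The core letters of PU.1 sites (GAGGAAGT, in 3.20% of promoters), of TCF and LEF sites (CTTTGAT, 3.73%) and of C/EBP sites (TTGCNNAA, 10.8%) were found in none of these windows, and the RUNX letters TGTGGT (16.8%) in that of Ms4a4c alone. These are matches of letters in a window and say nothing on binding. Sequence shared between genes also bears on the counts. It was measured on the sequences of 50 bases in the last 500 bases of the members' transcripts. Of these, 11.1% for Ms4a4c, 7.76% for Ms4a6c, 4.31% for Ms4a6b and 4.22% for Ms4a4b occur in another gene. The genes sharing them included Ms4a4b and Ms4a4d for Ms4a4c, Ms4a4c for Ms4a4b, Ms4a6b for Ms4a6c, and Ms4a6c and Ms4a6d for Ms4a6b, so the counts of these 4 genes are uncertain where reads fell there. Genes with other symbols were also among them, such as Gm8369 for Ms4a4b, Gm10212 for Ms4a6b and Prdm11 for Ms4a6c. No such sequence of Ms4a1, Ms4a4a, Ms4a6d or Ms4a7 occurs in another gene. Levels are compared between cells and not between genes, since a 3′ UMI is not a measure per length.

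Ms4a4c, Ms4a6c and Ms4a6d formed a monocyte pattern. Ms4a4c stood at 17.3 and 15.2 UMIs per 10000 in the Ly6c2 monocytes of the control tumors and at 17.1 and 14.1 in those of the Lyve1Cre Csf1r fl/fl tumors, a mean of 15.9 ± 1.56 (SD, n = 4). Leaving the B cell gate aside, here and in the orders below, the next types were Cd209a DCs, at 9.40 ± 0.597, and C1q macrophages, at 8.92 ± 1.51, and these neighbors overlapped between tumors while both lay below every monocyte value. Arg1 macrophages followed at 5.53 ± 0.878 (n = 3) and neutrophils at 3.93 ± 1.67, and tumor and stromal cells, which should lack the gene, were at 0.135 ± 0.0619.

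The level of Ms4a6c was 14.75, 13.85, 13.96 and 14.12 UMIs per 10000 in the monocytes of the 4 tumors, a mean of 14.2 ± 0.403, and varied little between them. It was 11.4 ± 1.34 in C1q macrophages and 9.35 ± 0.461 in Cd209a DCs, each separated from the next by a gap between tumor values. Arg1 macrophages followed at 5.50 ± 1.04 (n = 3), and the means of the T and NK cell types lay between 1.42 and 2.82.

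Ms4a6d, a member described in macrophages, gave 9.31, 8.19, 8.68 and 7.16 UMIs per 10000 in monocytes, 5.80 ± 0.543 in C1q macrophages and 4.37 ± 0.252 in Arg1 macrophages (n = 3). Here Cd209a DCs did not follow the macrophages. They stood at 1.95 ± 0.184, below neutrophils at 2.16 ± 0.932, and the values of these neighbors overlapped.

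Ms4a4a had the same order in phagocytes at few counts, with 3368 UMIs in all kept cells. Monocytes gave 0.648 to 0.733 UMIs per 10000, C1q macrophages 0.430 to 0.586 and Arg1 macrophages 0.212 to 0.351. The monocyte and macrophage values did not overlap with each other, and Cd209a DCs were at 0.0960 ± 0.0119. A UMI of Ms4a4a was found in 27.5% of the monocytes and 25.4% of the C1q macrophages, against 4.65% of the neutrophils. In cells thinned to 2000 UMIs the shares were 13.3, 10.4 and 2.52%. Thinned shares, here and below, are expected shares per tumor averaged over the tumors, while unthinned shares are over the cells of all tumors.

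Ms4a7 was the macrophage member. In C1q macrophages it stood at 17.0 and 12.7 UMIs per 10000 in the control tumors and at 8.99 and 9.70 in the Lyve1Cre Csf1r fl/fl tumors, a mean of 12.1 ± 3.64. A UMI of Ms4a7 was found in 82.0% of these cells, against 9.66% of neutrophils. Thinned to 2000 UMIs, which 420 C1q macrophages reached, the mean share over tumors was 70.2%, against 8.42%. Arg1 macrophages had 3.22, 1.16 and 2.34 and monocytes 0.737 to 1.19, so no other type reached the lowest C1q macrophage value. Phagocytes that passed several of the subset lists lay between, at 4.05 to 5.94.

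The level of Ms4a7 in other leukocytes differed between tumors. In neutrophils it was 2.68 UMIs per 10000 in control tumor 1 and 1.02, 0.589 and 0.418 in the others, and in CD8 T cells 1.81, 0.569, 0.154 and 0.275. The 4 C1q macrophage markers (C1qa, C1qb, C1qc and Apoe) moved with it: their summed level was 15, 4.96, 3.33 and 1.50 UMIs per 10000 in the neutrophils of the same tumors and 9.70, 2.35, 1.27 and 1.71 in the CD8 T cells, with none of the 4 at 0. For each 100 UMIs of these markers there were 17.7 to 27.8 UMIs of Ms4a7 in neutrophils, 12.2 to 24.2 in CD8 T cells and 10.8 to 16.7 in the C1q macrophages themselves. Whether macrophage RNA accounts for the Ms4a7 UMIs of neutrophils and T cells was not tested. In monocytes, with 1.86 to 2.29 UMIs per 10000 of the 4 markers, the ratio was 39.7 to 52.1, and in Arg1 macrophages 33.7 to 73.3.

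Ms4a4b was the lymphocyte member. NK cells gave 8.98 and 13.3 UMIs per 10000 in the control tumors and 9.03 and 12.2 in the Lyve1Cre Csf1r fl/fl tumors, so that both genotypes were higher in run 2. Gamma delta T cells, at 9.79 ± 2.39, and CD8 T cells, at 9.36 ± 0.972, overlapped with NK cells. Conventional CD4 T cells, at 6.60 ± 1.16, and regulatory T cells, at 4.34 ± 0.542, each stood below the type before them with no overlap. Monocytes were the next of the 15 types, at 1.01 ± 0.190.

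With every cell thinned to 2000 UMIs, the share of cells with a Ms4a4b UMI was 85.1% of NK cells, 81.0% of CD8 T cells, 65.5% of conventional CD4 T cells and 53.3% of regulatory T cells, against 5.997% of neutrophils and 2.02% of tumor and stromal cells. Thinning kept 1001 NK cells, 3040 CD8 T cells, 537 conventional CD4 T cells, 1260 regulatory T cells, 3611 neutrophils and 232 tumor and stromal cells. The unthinned shares were 94.6, 96.2, 79.3 and 71.4%, against 7.98 and 15.5%, at median depths of 3905.5, 5246, 3293 and 3748.5 UMIs, against 2211.5 and 47353.5. The lymphocyte shares therefore stood far above those of the types that should lack the gene.

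Ms4a6b crossed both lineages. Its level was 7.06 ± 0.590 UMIs per 10000 in monocytes and 4.39 ± 0.289 in C1q macrophages, and the next types were lymphocytes: 4.27 ± 1.08 in gamma delta T cells, 4.05 ± 0.646 in conventional CD4 T cells and 3.64 ± 0.462 in CD8 T cells. Cd209a DCs, at 3.39 ± 0.251, and regulatory T cells, at 3.26 ± 0.603, overlapped with these. The lowest leukocyte level was that of conventional type 1 DCs, at 0.421 ± 0.315.

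Ms4a6b and Ms4a6c parted in T cells. Per 100 UMIs of the 6 phagocyte markers, Ms4a6b gave 29.5 to 75.3 UMIs in CD8 T cells and 30.7 to 72.7 in regulatory T cells, against 8.16 to 9.29 in monocytes. Ms4a6c gave 20.3 to 25.6 in CD8 T cells, 27.4 to 28.6 in regulatory T cells and 15.5 to 18.7 in monocytes. The phagocyte markers themselves ranged from 3.503 to 14.7 UMIs per 10000 over the tumors in these 2 T cell types. The part of phagocyte RNA in the Ms4a6c of T cells was not tested.

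Ms4a1 was almost absent from the kept cells. Its 837 UMIs were the fewest of the 8 genes, and 50.4% of them were in cells that passed several lineage gates. In the B cell gate it stood at 1.29 UMIs per 10000 in control tumor 1 and at 2.61 in Lyve1Cre Csf1r fl/fl tumor 2, the 2 tumors with 10 or more cells. In the other 14 gated types no tumor was above 0.226, while cells that passed several lineage gates reached 1.09 in Lyve1Cre Csf1r fl/fl tumor 2, and plasmacytoid DCs had no UMI of Ms4a1 in any tumor. Lyve1Cre Csf1r fl/fl tumor 2 held the highest value in 11 of the other 14 types.

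The DC gates differed in their Ms4a levels. Cells of the Cd209a gate had Ms4a4c and Ms4a6c at the levels given above, beside the monocyte markers given for this gate, whose part in these levels was not tested, while mature DCs had 2.62 ± 0.696 UMIs per 10000 of Ms4a4c and 1.83 ± 0.557 of Ms4a6c, and conventional type 1 DCs 1.17 ± 0.827 and 1.73 ± 0.912. Plasmacytoid DCs varied between tumors, with 3.11, 5.20, 0.489 and 1.72 of Ms4a4c in the 4 tumors, on 125, 22, 30 and 24 cells. Both control values lay above both Lyve1Cre Csf1r fl/fl values.

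**Figure D2:**
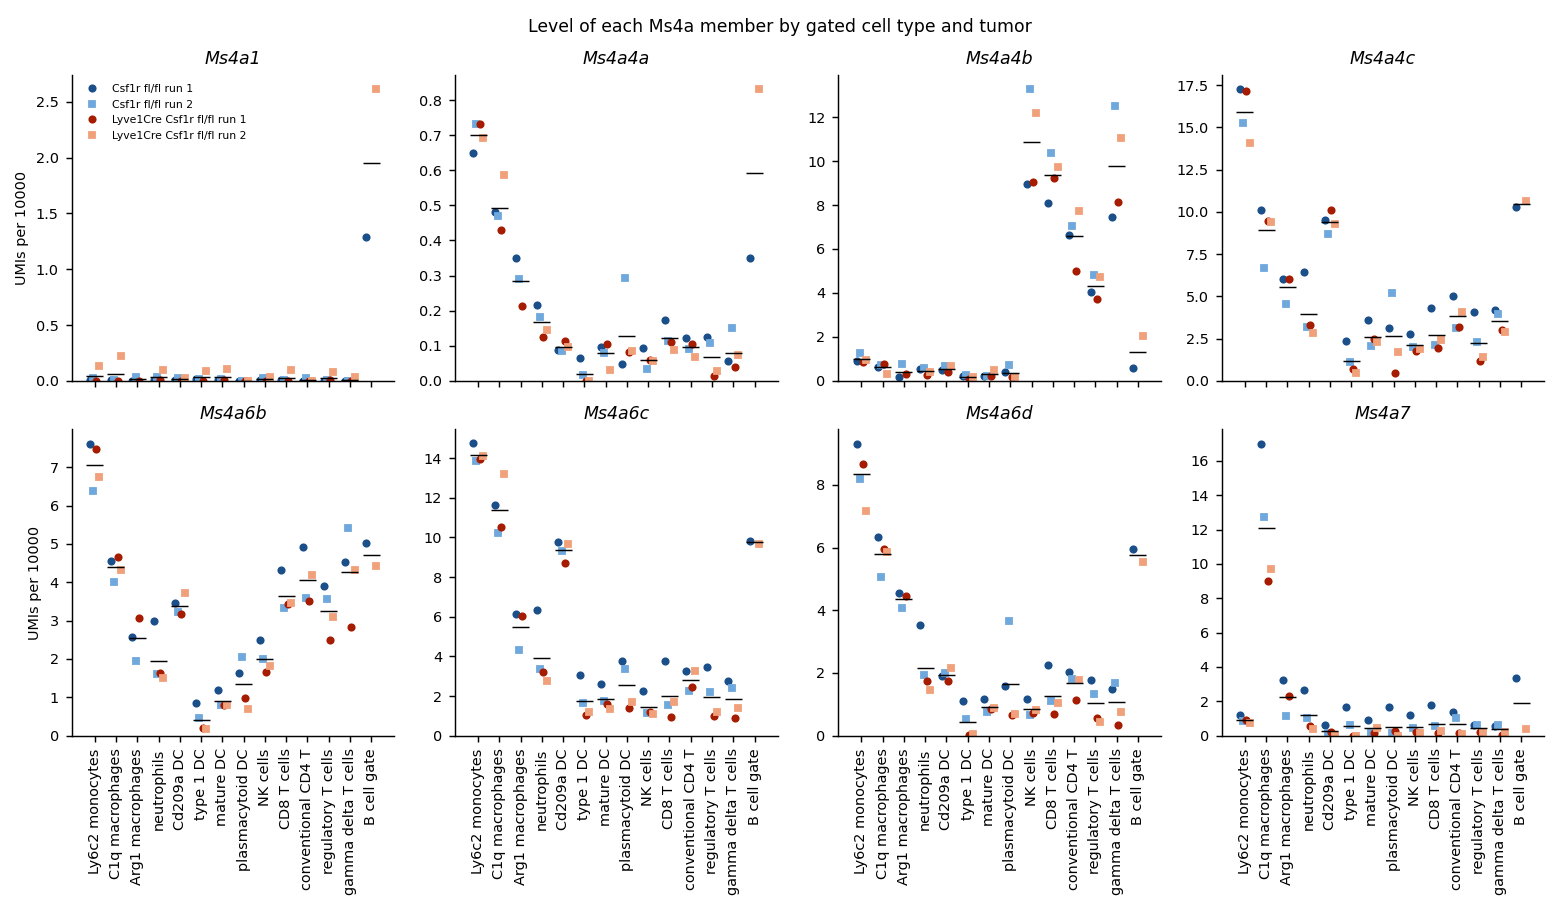
Level of each of the 8 genes in UMIs per 10000 UMIs (vertical axis, a linear scale of its own for each gene) by gated cell type, with 1 point per tumor (circles for run 1, squares for run 2, blue for the control tumors, red and orange for the Lyve1Cre Csf1r fl/fl tumors) and a bar at the mean over tumors with 10 or more cells of the type. Ms4a4a, Ms4a4c, Ms4a6b, Ms4a6c and Ms4a6d have their highest mean at the left in Ly6c2 monocytes, Ms4a7 in C1q macrophages, where its mean is 12.1, and Ms4a4b in NK cells, gamma delta T cells and CD8 T cells.

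Over the mean levels of 13 cell types, on the log2(UMIs per 10000 + 0.1) scale, Ms4a4c and Ms4a6c had the most similar pattern among the members, with a Pearson correlation of 0.972, followed by Ms4a4c with Ms4a6d at 0.952 and Ms4a6c with Ms4a6d at 0.946. Ms4a4b had 0.218 with Ms4a4c, its nearest neighbor in promoter sequence, and 0.621 with Ms4a6b. These values describe 13 types from the same 4 tumors, which share libraries and depth.

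Among the 3094 genes that reached 1 UMI per 10000 in some type, the pattern most like that of Ms4a7 was that of C1qb, a gate marker, at 0.965, and then of C3ar1, the receptor of complement fragment C3a, at 0.961. Ms4a4b was followed most closely by Prkch, a protein kinase C, at 0.975, and by Il18r1 and Il2rb, chains of the IL-18 and IL-2 receptors, at 0.973 and 0.967. Ms4a6d was most like Fcgr1, the high-affinity IgG receptor and a gate marker, at 0.980, and Clec4a3 and Clec4a1, lectin receptors, at 0.976 and 0.975. Ms4a4a was most like Cfb, complement factor B, at 0.962, Sirpb1c at 0.950 and Msr1, a scavenger receptor, at 0.943. For Ms4a6b the nearest were Tent5a at 0.965, Slfn8 at 0.949 and Ifi206 at 0.941. Ms4a4c and Ms4a6c each had the other as the nearest gene, then Fcgr1 at 0.953 and 0.963, then Ms4a6d for the first and Cd300c2, at 0.954, for the second. The nearest to Ms4a1 reached less, with Efhd2 at 0.834, Cxcl9 at 0.806 and Rac1 at 0.798. The B cell gate and Arg1 macrophages were not among the 13 types. In those types the mean of Ms4a1 was at most 0.0604 UMIs per 10000, below the 0.1 added before the log. Its values therefore cannot show which genes it resembles.

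The types were then compared within tumors, on UMIs summed per tumor and type, with edgeR's quasi-likelihood test, the tumor as a block and Benjamini-Hochberg adjustment over all genes tested. Of the 72 pairs of member and comparison that could be tested over 10 comparisons, 50 passed an adjusted p of 0.05. The share of all genes called ranged from 6.63% to 60.9% between the comparisons. The test was made on cell types whose markers are known to differ, so the share of all genes called is given beside each count.

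C1q macrophages against Ly6c2 monocytes set Ms4a7 apart from the other members: 7 of 8 members passed the test, with 32.2% of all 9928 genes called, and 1 was higher and 6 were lower in the macrophages. Ms4a7 was higher by 3.55 ± 0.11 (log2 fold change ± SE, adjusted p = 1.33e-22). Ms4a4c was lower, at -1.02 ± 0.10 (adjusted p = 4.5e-10), and Ms4a4b, Ms4a6b, Ms4a6d, Ms4a4a and Ms4a6c at -0.86, -0.85, -0.70, -0.68 and -0.49. Ms4a1 gave -0.04 ± 0.66. The median over the 8 genes was -0.69, beside 0.02 over all genes tested. With marker thresholds doubled 5 members passed, beside 22.5% of genes, and the calls lost were Ms4a4b, at -0.37, and Ms4a6c, at -0.27.

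C1q and Arg1 macrophages were compared on 4 and 3 tumors, and 4 of 7 members tested were higher in C1q macrophages, with 15.4% of genes called. With the tumor as a block, the difference rested on the 3 tumors that had both types. Ms4a7 differed by 2.55 ± 0.21 (adjusted p = 5.45e-14), Ms4a6c by 0.89 ± 0.17, Ms4a6b by 0.74 ± 0.20 and Ms4a4c by 0.55 ± 0.17, while Ms4a6d gave 0.29 ± 0.18 and did not pass. The median over the members was 0.55 and over all genes 0.03. Without control tumor 1 or control tumor 2 the count was 2, Ms4a7 and Ms4a6c, in each case, and the share of all genes called fell to 6.51% and 8.41%. DESeq2 called the same 2, beside 5.52%. Ms4a6b did not pass with marker thresholds doubled, nor Ms4a4c without the tumor as a block.

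Ly6c2 monocytes differed from neutrophils in 7 of 8 members, with 54.7% of genes called and medians of 1.25 over the members and 0.07 over all genes. Ms4a4c was higher in monocytes by 1.42 ± 0.12 (adjusted p = 2.23e-06), and Ms4a4a, Ms4a6d, Ms4a6c, Ms4a6b and Ms4a4b by 1.40, 1.34, 1.25, 1.24 and 0.51. Ms4a7 was lower by the test, at -0.75 ± 0.22 (adjusted p = 0.0125), and this call rested on the cells included: without the cells called doublets by Scrublet the value was 0.29, of the opposite sign, and without control tumor 2 it was -0.62 and did not pass, nor did it without the tumor as a block, at -0.97. Ms4a4b was at 0.28 and did not pass with marker thresholds doubled. The neutrophils of control tumor 1, at 2.68 UMIs per 10000, stood above every monocyte value.

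Cd209a DCs were lower than monocytes in all 7 members tested, with 47.5% of genes called and medians of -1.09 and 0.02. The difference was largest for Ms4a4a, at -2.93 ± 0.16 (adjusted p = 6.82e-15), and Ms4a6d, at -2.13 ± 0.08 (adjusted p = 2.31e-18), and smallest for Ms4a4c and Ms4a6c, at -0.79 ± 0.06 and -0.64 ± 0.05. Ms4a7 gave -2.01, Ms4a6b -1.09 and Ms4a4b -0.91.

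Mature DCs against Cd209a DCs gave 6 of 7 members called, with 60.9% of genes called and medians of -0.83 and -0.0032. Ms4a6c was lower in mature DCs by -2.11 ± 0.11 (adjusted p = 4.94e-12), Ms4a6b by -1.66, Ms4a4c by -1.60, Ms4a6d by -0.83 and Ms4a4b by -0.71, the last at 0.02 with marker thresholds doubled. Ms4a7 was higher by 0.90 ± 0.25 (adjusted p = 0.00474), a call that was lost without the cells called doublets, at 0.54, with marker thresholds doubled, at 0.24, and without the tumor as a block, at 0.99. The C1q markers lay between 0.777 and 3.33 UMIs per 10000 in mature DCs and between 0.431 and 3.04 in Cd209a DCs, and their part in the Ms4a7 value was not tested.

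Plasmacytoid DCs against Cd209a DCs gave 4 of 6 members called, with 28.6% of genes called and medians of -1.03 and -0.07. Ms4a4c was lower by -2.05 ± 0.27, Ms4a6c by -2.01 ± 0.19 and Ms4a6b by -1.45 ± 0.21. Ms4a7 was higher by 0.91 ± 0.32 (adjusted p = 0.0333), but at -0.19 without control tumor 1, whose plasmacytoid DCs held 1.68 UMIs per 10000 of Ms4a7 against at most 0.245 in the others. The call was also lost under DESeq2, at 0.44, with marker thresholds doubled, at 0.35, and without the tumor as a block, at 1.68.

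Among lymphocytes Ms4a4b set CD8 T cells apart from regulatory T cells. It was 1.24 ± 0.06 higher (adjusted p = 5.93e-09) and remained called in every alternative run. In all, 4 of 8 members passed, with 25.6% of genes called and medians of 0.46 and 0.03: Ms4a4a at 0.96 ± 0.32, Ms4a4c at 0.46 ± 0.13 and Ms4a6b at 0.29 ± 0.09 were the others. The count was 2 without control tumor 1, Ms4a4b and Ms4a4c, and 1 without either Lyve1Cre Csf1r fl/fl tumor, Ms4a4b, beside 21.6%, 19.1% and 21.2% of genes. DESeq2 called Ms4a4b and Ms4a4c, beside 14.9%, and Ms4a4b alone passed without the tumor as a block, beside 12.8%. Ms4a6b did not pass with marker thresholds doubled. Fcer1g, an adaptor of myeloid and NK cells, was also higher in CD8 T cells, by 0.56 ± 0.13 (adjusted p = 0.00693). The C1q markers were at 1.27 to 9.70 UMIs per 10000 in CD8 T cells and 0.799 to 2.61 in regulatory T cells, and the phagocyte markers at 4.57 to 14.7 and 3.503 to 12.7. Their part in the calls was not tested.

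CD8 T cells against NK cells gave 4 of 7 members called, with 23.2% of genes called and medians of 0.35 and -0.0023. Ms4a6b was higher in CD8 T cells by 0.78 ± 0.08 (adjusted p = 1.11e-05), Ms4a4a by 0.92 ± 0.24 and Ms4a6d by 0.45 ± 0.14, and Ms4a4b was lower, at -0.29 ± 0.07 (adjusted p = 0.0112). Without control tumor 2, under DESeq2 and without the tumor as a block, only Ms4a6b passed, beside 16.6%, 14.5% and 13.8% of genes. Ms4a6d did not pass without control tumor 1, nor Ms4a4b without Lyve1Cre Csf1r fl/fl tumor 2. The phagocyte markers were at 4.57 to 14.7 UMIs per 10000 in CD8 T cells and 3.95 to 8.86 in NK cells, and the C1q markers at 1.27 to 9.70 and 0.204 to 6.27. Scrublet called 19.9% of the CD8 T cells and 10.9% of the NK cells doublets. The part of either in the calls was not tested.

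Regulatory against conventional CD4 T cells gave 4 of 7 members called, all lower in regulatory T cells, in a comparison in which 6.63% of genes were called and the medians were -0.63 and 0.0028. Ms4a4c was lower by -0.91 ± 0.16 (adjusted p = 0.0029), Ms4a6d by -0.83 ± 0.20, Ms4a4b by -0.63 ± 0.07 (adjusted p = 5.57e-05) and Ms4a6b by -0.35 ± 0.09. Without Lyve1Cre Csf1r fl/fl tumor 1 the count was 2, Ms4a4b and Ms4a4c, beside 3.04% of genes, DESeq2 called Ms4a4b alone, beside 2.04%, and no member passed without the tumor as a block, beside 0.632%. Ms4a6b did not pass without Lyve1Cre Csf1r fl/fl tumor 2 either, nor with marker thresholds doubled. The phagocyte markers were at 3.503 to 12.7 UMIs per 10000 in regulatory and 8.89 to 12.7 in conventional CD4 T cells, and their part in these differences was not tested.

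CD8 T cells with a UMI of Tcf7, which encodes the memory and progenitor factor TCF-1, were 633 of 3256. They had 5.46, 3.72, 2.44 and 3.67 UMIs per 10000 of Ms4a4c in the 4 tumors, each above the 4.16, 1.62, 1.81 and 1.64 of the CD8 T cells without one from the same tumor. The difference was 0.84 ± 0.12 (adjusted p = 0.00029), and Ms4a6c and Ms4a6d were higher by 0.47 ± 0.13 and 0.46 ± 0.13, so that 3 of 7 members passed, with 14.2% of genes called and medians of 0.25 and 0.0028. In Lyve1Cre Csf1r fl/fl tumor 1 these 2 ran the other way, with Ms4a6c at 0.775 in the cells with a Tcf7 UMI against 0.971 and Ms4a6d at 0.662 against 0.715 UMIs per 10000. Without control tumor 2, or Lyve1Cre Csf1r fl/fl tumor 2, or under DESeq2, Ms4a4c alone passed, beside 8.97%, 8.41% and 6.82% of genes, and no member passed without the tumor as a block, beside 3.26%. With marker thresholds doubled neither Ms4a6c nor Ms4a6d passed, and without the cells called doublets Ms4a6d did not. Fcer1g and Tyrobp, signaling adaptors of myeloid and NK cells, were also higher, by 0.57 ± 0.13 and 0.53 ± 0.13, in the cells with a Tcf7 UMI, whose median depth was 5856 UMIs against 5102. The part of either in the Ms4a differences was not tested.

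**Figure D3:**
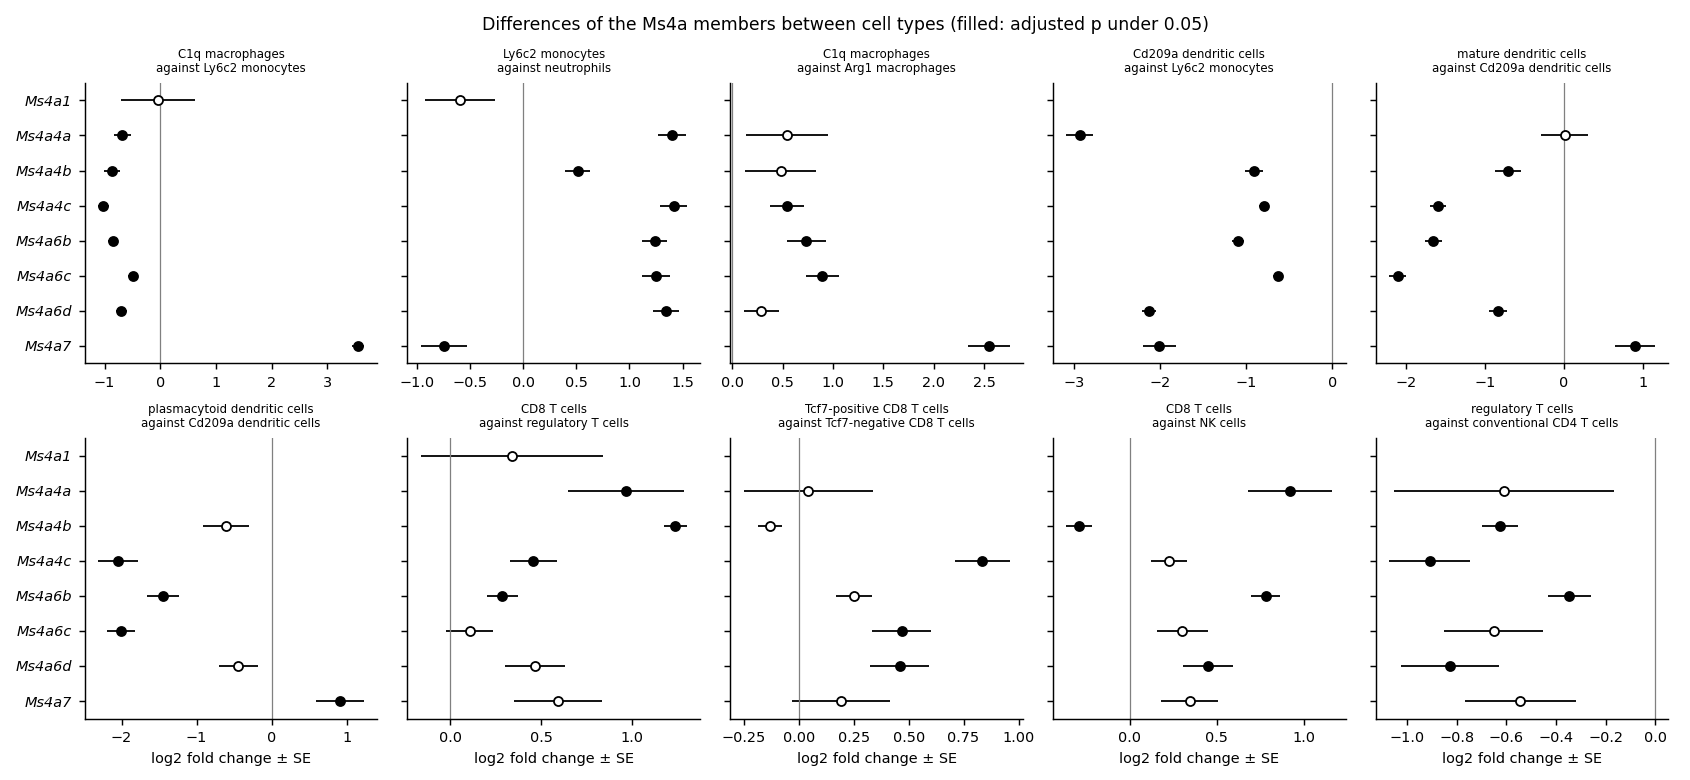
Log2 fold change ± SE (horizontal axis, its own range in each panel) of each gene in the 10 comparisons of cell types from edgeR's quasi-likelihood fit, the first named type over the second, with filled points at an adjusted p under 0.05. Ms4a7 stands alone on the right in C1q macrophages against Ly6c2 monocytes, at 3.55, where 6 others lie to the left of 0, and genes that did not pass the filter on low counts have no point.

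Partners of MS4A proteins and co-receptors were counted from a list of 9 genes (Trem2, Tyrobp, Tnfrsf18, Fcer1g, Fcer1a, Cd79a, Cd40, Cd2 and Cd5). Tnfrsf18, the GITR gene, was highest in regulatory T cells, at 7.48 ± 1.46 UMIs per 10000, and conventional CD4 T cells, at 5.86 ± 1.61, and lower in CD8 T cells, at 1.83 ± 0.419, and NK cells, at 0.970 ± 0.113. Across CD8 and regulatory T cells it thus ran opposite to Ms4a4b, with a log2 fold change of -1.92 ± 0.08 (adjusted p = 1.08e-09) in CD8 over regulatory T cells. Of the 8 listed genes tested in that comparison, 1 was called higher and 3 were called lower in CD8 T cells, beside 25.6% of all genes called. Trem2, a lipid receptor of macrophages, was higher in C1q macrophages than monocytes by 1.54 ± 0.20 (adjusted p = 2.11e-07), as Ms4a7 was, and Tyrobp, its signaling adaptor, was lower by -0.71 ± 0.08. These were the 2 called of the 7 listed genes tested there, beside 32.2% of all genes called.

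The genotypes were compared in the 12 types with 20 or more cells in every tumor. Of 78 pairs of member and cell type tested, 3 passed, all lower in the Lyve1Cre Csf1r fl/fl tumors, beside 0.0486% of the tests over all genes. In all, 61 of the 78 pairs were lower, or 78.2% beside 50.3% of the tests over all genes, and 18 had an unadjusted p under 0.05, or 23.1% beside 2.69%. Without control tumor 1, 38 of 81 pairs were lower, or 46.9% beside 47.9%, and 2 passed, beside 0.195%. With the run as a replicate block, the pairing set by the design, 14 pairs passed, all lower, but calls over all genes rose as well, to 0.681%. Without control tumor 2, 17 pairs passed, 16 of them lower, beside 1.34% over all genes, and 8 and 9 passed without the Lyve1Cre Csf1r fl/fl tumors of runs 1 and 2, beside 0.269% and 0.354%. Without the cells called doublets 1 pair passed, beside 0.0106%. DESeq2 called 5 pairs, beside 0.0855%, and edgeR without the low-count filter 15 of 95, beside 0.401%. With marker thresholds doubled 0 of 72 passed by edgeR, beside 0.00894%, in a fit in which 2112 of 89499 tests over all genes had an unadjusted p under 0.05.

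The called pairs were in CD4 T cells. Ms4a7 was 1.40 and 1.03 UMIs per 10000 in the conventional CD4 T cells of the control tumors and 0.164 and 0.0810 in those of the Lyve1Cre Csf1r fl/fl tumors, a log2 fold change of -3.25 ± 0.39 (adjusted p = 0.00367, with 0.0527% of genes called in this type). The groups did not overlap, but the call was lost without the cells called doublets, at -2.97, and with marker thresholds doubled, at -3.24. In regulatory T cells it was 0.649 and 0.633 against 0.218 and 0.207, at -1.60 ± 0.24 (adjusted p = 0.0445, with 0.291% of genes called). This was the 1 pair that passed without the cells called doublets, at -2.95, and it was lost with marker thresholds doubled, at -1.07. Ms4a6d in regulatory T cells was 1.79 and 1.33 against 0.551 and 0.437, at -1.67 ± 0.27 (adjusted p = 0.0448), and this call was lost without control tumor 1, at -1.34, without the cells called doublets, at -1.17, and with marker thresholds doubled, at -1.45.

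Macrophage markers moved with these pairs. The summed C1q markers were at 8.34 and 3.54 UMIs per 10000 in the conventional CD4 T cells of the control tumors and at 1.22 and 1.20 in those of the Lyve1Cre Csf1r fl/fl tumors, and at 2.61 and 2.25 against 0.819 and 0.799 in regulatory T cells. In conventional CD4 T cells each 100 UMIs of these markers came with 16.8, 29.0, 13.5 and 6.74 UMIs of Ms4a7 in the 4 tumors, a ratio that was also lower in both Lyve1Cre Csf1r fl/fl tumors. In regulatory T cells the ratio was 24.8, 28.1, 26.6 and 25.9 and varied little between the tumors. The phagocyte markers were at 12.7 and 7.91 against 3.503 and 4.27 UMIs per 10000 in regulatory T cells, with 14.1, 16.9, 15.7 and 10.2 UMIs of Ms4a6d per 100 of them. The part of phagocyte RNA in the 3 calls was not tested.

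In C1q macrophages, the cells of its highest level, Ms4a7 was lower in both Lyve1Cre Csf1r fl/fl tumors than in either control tumor, at -0.70 ± 0.28, and did not pass (adjusted p = 0.9997). Leaving out 1 tumor at a time gave -0.42 to -0.94. The C1q macrophages numbered 236 and 132 in the control tumors and 57 and 35 in the Lyve1Cre Csf1r fl/fl tumors. Ms4a4b, at 9.03 and 12.2 UMIs per 10000 in NK cells of the Lyve1Cre Csf1r fl/fl tumors against 8.98 and 13.3, overlapped between the genotypes. Of 66 pairs of partner gene and cell type, 0 passed by edgeR, beside 0.0486% of the tests over all genes, and 9 had an unadjusted p under 0.05, or 13.6% beside 2.69%.

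Whether the step between 2 cell types differed by genotype was tested with an interaction term in 9 comparisons, a test chosen after the levels were seen. Of 65 pairs of member and comparison 7 passed, beside 0.131% of the tests over all genes. In plasmacytoid over Cd209a DCs, Ms4a4c, Ms4a6d and Ms4a6c had a lower log2 fold change in the Lyve1Cre Csf1r fl/fl tumors, by -2.06 ± 0.36 (adjusted p = 0.000293), -1.91 ± 0.44 and -1.28 ± 0.29, with 0.530% of genes called. Compared between genotypes in plasmacytoid DCs alone, none of these genes passed (edgeR, adjusted p = 0.0952, 0.107 and 0.2045 in the same order). The phagocyte markers in plasmacytoid DCs were at 13.5 and 20.4 UMIs per 10000 in the control tumors and at 6.52 and 9.99 in the others, and their part was not tested.

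In regulatory over conventional CD4 T cells, Ms4a6c, Ms4a6d and Ms4a4c had a lower fold change in the Lyve1Cre Csf1r fl/fl tumors, by -1.45 ± 0.16 (adjusted p = 1.11e-05), -1.24 ± 0.24 and -1.15 ± 0.15, and Ms4a7 a higher one, by 1.63 ± 0.38 (adjusted p = 0.0401), with 0.620% of genes called. In regulatory T cells Ms4a6c was at 3.48 and 2.22 UMIs per 10000 against 1.003 and 1.184, with no overlap, while in conventional CD4 T cells it was at 3.27 and 2.27 against 2.48 and 3.27, with overlap. Conventional CD4 T cells that the authors did not keep, at a hashtag ratio of 3 or more, numbered 16, 39, 32 and 362 in the 4 tumors. They had Ms4a6c at 6.889, 5.271, 6.963 and 1.325 UMIs per 10000. The interaction was fitted on kept cells alone, and the part of that selection was not tested. Compared between genotypes in regulatory T cells alone, Ms4a6c and Ms4a4c did not pass (edgeR, adjusted p = 0.0713 and 0.118), while Ms4a6d did, as given above. The phagocyte markers, given above for regulatory T cells, were at 12.7 and 8.89 against 9.11 and 11.8 in conventional CD4 T cells, and their part was not tested.

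**Figure D4:**
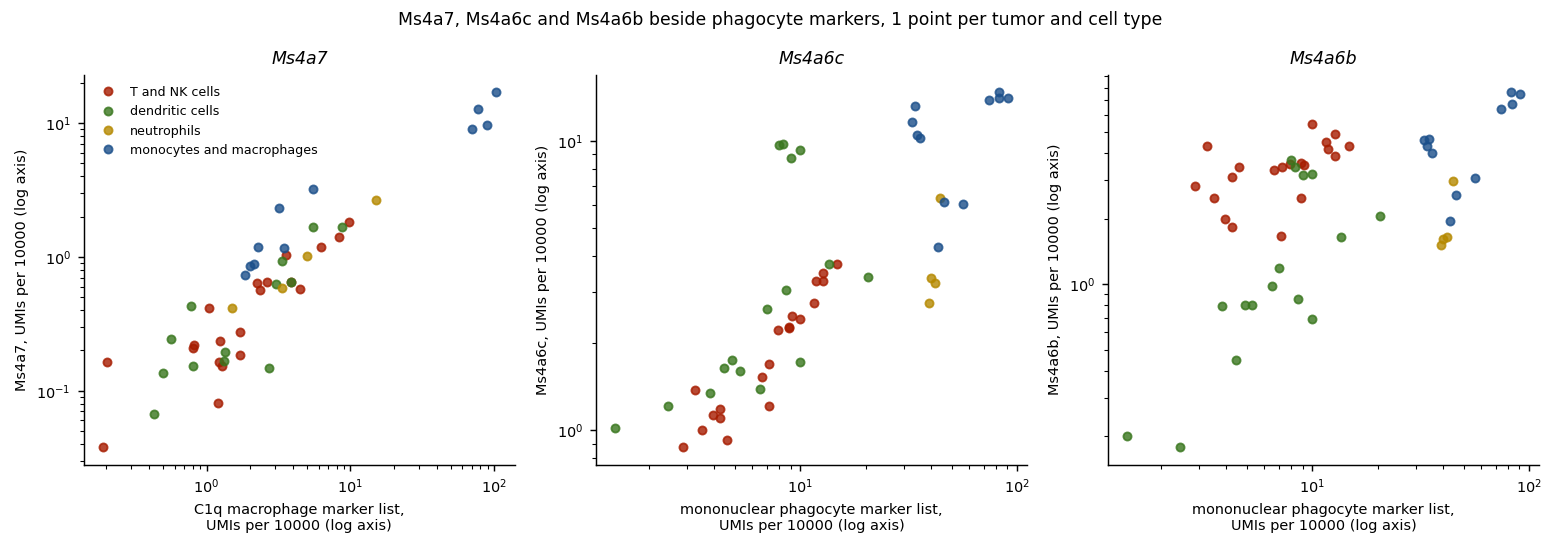
Level of Ms4a7 against the summed C1q macrophage markers, and of Ms4a6c and Ms4a6b against the summed mononuclear phagocyte markers, all in UMIs per 10000 on log axes, with 1 point per tumor and cell type and values of 0 not drawn. In T and NK cells and neutrophils, Ms4a7 came with 6.74 to 80.0 UMIs per 100 UMIs of the C1q markers, against 10.8 to 16.7 in C1q macrophages, while Ms4a6b of T and NK cells stays between 1.66 and 5.42 UMIs per 10000.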

How the data were processed

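Single-cell 3′ RNA counts of CD45+ cells from 4 tumors were analysed. Per the labels and the study's methods, the authors used Cell Ranger 6.0.1 with the mm10 genome and Seurat. The deposited counts are whole UMIs per gene and barcode, 32285 genes by 53361 barcodes, with hashtag counts per barcode. A second deposited table holds corrected values from SCTransform, treated as a score and used only to name the 28429 cells the authors kept (53.3%), a set from which they had removed clusters specific to the second Lyve1Cre Csf1r fl/fl tumor. How reads on sequence shared between genes were treated is not given in the sources used here.

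Within a run, the hashtag with the higher centered log ratio of its counts set a cell's tumor. In 75 cells of control tumor 1 the other hashtag had the higher raw count. Gates needed 2 or more different markers of a list and a summed level above a threshold of 5 to 100 UMIs per 10000, set from the distributions of the marker sums, and 20638 cells (72.6%) fell in 1 of 15 types. The remaining cells had several lineages, no lineage, or a lineage without a subset. T cells that passed their gate were split by single UMIs. Regulatory T cells had a UMI of Foxp3 and none of Cd8a or Cd8b1. Conventional CD4 T cells had a UMI of Cd4 and none of Foxp3, Cd8a or Cd8b1. CD8 T cells had a UMI of Cd8a or Cd8b1 and none of Cd4 or Foxp3. Gamma delta T cells had a UMI of Trdc and none of Cd4, Cd8a, Cd8b1 or Foxp3. A regulatory T cell in which no Foxp3 UMI was captured could fall in the conventional CD4 type, and how many did was not tested. Doublets were left in beyond the exclusive gates, and Scrublet calls (expected rate 0.2, scanpy 1.11.5) were used in an alternative. Levels needed 10 cells of a type in a tumor.

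UMIs were summed per tumor and type and tested with edgeR 4.0.16 (limma 3.58.1, R 4.3.3) by glmQLFit and glmQLFTest with TMM and filterByExpr, adjusted over all genes by Benjamini-Hochberg at 0.05. The SE given with an edgeR fold change is the absolute log2 fold change over the square root of the F statistic, an approximation. Cell types were compared with the tumor as block, since they came from the same tumors, and genotypes without the run, in the 12 types with 20 cells in every tumor. The runs pair the tumors by design, 1 of each genotype in each. Each tumor came from a separate mouse as far as the labels say. The p-values of the genotypes measure the spread between these tumors, which includes that between runs. Those of fits with the tumor as block measure the spread of the difference within tumors. Alternatives were DESeq2 1.42.0, no filter, a hashtag ratio of 3, doubled thresholds, no Scrublet doublets, each tumor left out, and the other block. Python 3.11.15, numpy 2.4.6, pandas 2.3.3, scipy 1.17.1 and matplotlib 3.10.9 were used.

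The members, marker lists and partner list were chosen with earlier results of these data known. Genes named beyond the members were the other Ms4a genes, Tmem176a and Tmem176b, the partner list (further genes of it are not reported here), and for each member the 3 genes of most similar pattern. On simulated counts for C1q macrophages against Ly6c2 monocytes (9851 genes), 14.4% of 2-fold and 87.9% of 4-fold changes were called. For the genotypes in regulatory T cells (9600 genes) these shares were 0 and 39.8%. The simulated counts had the same fixed dispersion for every gene, not estimated from these data, and no effect of the tumor. These shares therefore do not give the power of the tests made here.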

Additional observations from a re-analysis of the deposited data

Results flagged for a closer look

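The interaction term gave 7 pairs in which the step between 2 cell types differed by genotype. In plasmacytoid over Cd209a DCs the log2 fold change in Lyve1Cre Csf1r fl/fl minus that in Csf1r fl/fl tumors was -2.06 for Ms4a4c, -1.28 for Ms4a6c and -1.91 for Ms4a6d. In regulatory over conventional CD4 T cells it was 1.63 for Ms4a7, -1.15 for Ms4a4c, -1.45 for Ms4a6c and -1.24 for Ms4a6d. The plasmacytoid DC values rest on 22 to 30 cells in 3 of the tumors, and no tumor was left out of this test.

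In some comparisons the difference between 2 types had 1 sign in both Csf1r fl/fl tumors and the opposite sign in both Lyve1Cre Csf1r fl/fl tumors. For Ms4a7 in monocytes less neutrophils the mean in Csf1r fl/fl tumors was -0.827 UMIs per 10000 (-1.49 and -0.164), against 0.296 and 0.320 in the others. For Ms4a7 in regulatory less conventional CD4 T cells it was -0.571 (-0.749 and -0.394), against 0.0533 and 0.126, the pair whose interaction is given above. The other cases were at levels of few UMIs: 0.00266 for Ms4a1 in Cd209a DCs less monocytes, -0.00556 for Ms4a1 in mature less Cd209a DCs, 0.0505 for Ms4a4a in CD8 T cells with less those without a Tcf7 UMI, and 0.00991 for Ms4a4a in regulatory less conventional CD4 T cells. On the log2 scale, the interaction term for Ms4a7 in monocytes against neutrophils was 1.18 ± 0.26 and did not pass (edgeR, adjusted p = 0.724). Those for Ms4a4a did not pass in the Tcf7 comparison, at -1.19 ± 0.56 (adjusted p = 1), or in regulatory against conventional CD4 T cells, at -2.27 ± 0.80 (adjusted p = 0.419). The 2 differences of Ms4a1 were not tested.

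Among barcodes that the authors did not keep, the B cell gate held Ms4a1 at 8.79 and 6.12 UMIs per 10000 in the Csf1r fl/fl tumors and at 10.4 and 11.8 in the Lyve1Cre Csf1r fl/fl tumors, on 215, 92, 91 and 2457 cells. A UMI of Ms4a1 was found in 66.5, 76.1, 67.0 and 86.0% of these cells. All 4 values lay above both values of the B cell gate among the kept cells, 1.29 and 2.61. The 2 sets differ in settings and depth. Barcodes not kept were limited to under 5% mitochondrial UMIs and a hashtag ratio of 3 or more. Kept cells of the gate had no limit on the hashtag ratio. Median UMIs per cell were 1424, 2931, 1473 and 1879, against 6295 in the kept gate.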

How the results depend on the processing

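Of 166 alternative values for counts of members and leading levels, 137 stayed within the limits set for them and 29 moved. The limit for a level was 1 SD over tumors. A mean cannot move that far when 1 tumor is left out, so those levels could only stay. The limit for a count was wide, and 5 members called in place of 7 were within it. The count moved under DESeq2 to 2 of C1q against Arg1 macrophages, 2 of CD8 against regulatory T cells, 1 of CD8 T cells with against without a Tcf7 UMI, 1 of CD8 T against NK cells, 1 of regulatory against conventional CD4 T cells and 5 genotype pairs, beside 5.52%, 14.9%, 6.82%, 14.5%, 2.04% and 0.0855% of all genes or tests called. Without the low-count filter the count of CD8 T against NK cells rose, and 15 genotype pairs passed, beside 0.401% of the tests over all genes. Doubled thresholds gave 0 genotype pairs by edgeR, beside 0.00894%, and Ms4a1 at 3.75 UMIs per 10000 in the B cell gate. Leaving out Scrublet doublets gave 1 genotype pair, beside 0.0106%, and Ms4a6c at 14.6 in monocytes. Leaving out 1 tumor at a time gave 2 to 4 for C1q against Arg1 macrophages, 1 to 6 for CD8 against regulatory T cells, 1 to 4 for the Tcf7 comparison, 1 to 6 for CD8 T against NK cells, 2 to 5 for regulatory against conventional CD4 T cells and 2 to 17 for the genotypes. The share of all genes called moved in these fits too. For C1q against Arg1 macrophages, 2 came beside 6.51% and 8.41%, and 4 beside 15.4% and 16.8%. Lyve1Cre Csf1r fl/fl tumor 2 had too few Arg1 macrophages to enter that difference, so leaving it out was no check of it. For CD8 against regulatory T cells, 1 came beside 19.1% and 21.2%, 2 beside 21.6% and 6 beside 23.1%. The genotype shares are given above. For the other comparisons the highest counts stand without a share. These ranges therefore do not show a change of the members alone. The cause was not tested.

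With the run as a replicate block 14 genotype pairs passed, beside 0.681% of the tests over all genes. Without the tumor as a replicate block the counts were 7, 6, 3, 7, 5 and 3 for C1q macrophages against monocytes, monocytes against neutrophils, C1q against Arg1 macrophages, Cd209a DCs against monocytes, and mature and plasmacytoid against Cd209a DCs, beside 24.4%, 44.8%, 13.8%, 34.5%, 53.8% and 26.7% of all genes. They were 1 for CD8 against regulatory T cells, 1 for CD8 T against NK cells, and 0 by edgeR for the Tcf7 comparison and for regulatory against conventional CD4 T cells, where 1406 and 947 of all genes had an unadjusted p under 0.05, beside 12.8%, 13.8%, 3.26% and 0.632%.

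The alternative values for single members held, of the genotype pairs, the called ones and Ms4a7 in C1q macrophages alone. Calls that other genotype pairs gained in an alternative are thus not counted here. Of 753 alternative values for single members, 624 kept direction and call, 73 lost and 34 gained the call, and 22 changed sign. For Ms4a1 these were 0.02 (DESeq2), 0.58 (no Scrublet doublets) and 0.45 (without Csf1r fl/fl run 2) in C1q macrophages against monocytes, and -0.05 (doubled thresholds) in CD8 against regulatory T cells. For Ms4a7 they were 0.29 (no Scrublet doublets) in monocytes against neutrophils, -0.19 (without Csf1r fl/fl run 1, up to 1.06 without another tumor) in plasmacytoid against Cd209a DCs, and -0.24 (DESeq2) and -0.0019 (without Csf1r fl/fl run 2, up to 0.37 without another tumor) in the Tcf7 comparison. For Ms4a4a they were -0.07 (DESeq2), -1.01 (doubled thresholds), -1.17 (no Scrublet doublets) and -0.09, -0.03 and -0.04 (1 tumor left out, up to 0.22 for the remaining one) in mature against Cd209a DCs, and -0.08 (DESeq2), -0.40 (doubled thresholds), -0.81 (no Scrublet doublets), -0.14 and -0.16 (without either Csf1r fl/fl tumor, up to 0.34 without another) and -0.03 (no block) in the Tcf7 comparison. Ms4a4b gave 0.02 (doubled thresholds) in mature against Cd209a DCs, and Ms4a6c -0.07 (without Lyve1Cre Csf1r fl/fl run 2) in CD8 against regulatory T cells. The 837 UMIs of Ms4a1 and 3368 of Ms4a4a limit what can be said of them.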

Other observations

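Tmem176a and Tmem176b, relatives of the Ms4a family on another chromosome, were highest in mature DCs. Tmem176a stood there at 4.04, 3.17, 3.36 and 3.62 UMIs per 10000 in the 4 tumors, and Tmem176b at 3.44 ± 0.20 (SD, n = 4). Cd209a DCs had 0.911 ± 0.250 and 1.03 ± 0.280, and the values did not overlap. The difference was 2.23 ± 0.12 and 2.02 ± 0.13 on the log2 scale, opposite in sign to that of Ms4a6c, Ms4a6b, Ms4a4c, Ms4a6d and Ms4a4b.

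Of the other Ms4a genes, Ms4a14, the neighbor of Ms4a7, had 558 UMIs in the kept cells and was highest in C1q macrophages, at 0.307 ± 0.0537 UMIs per 10000. It was higher there than in monocytes by 3.58 ± 0.35 (log2 fold change ± SE, edgeR's quasi-likelihood test, adjusted p = 8.61e-10). Ms4a8a, with 629 UMIs, was lower in C1q macrophages than in monocytes, at -1.76 ± 0.36 (adjusted p = 0.000208). Ms4a2, of mast cells and basophils, had 9 UMIs, and 7 cells fell in the gate of these cells.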
